A study of Homo sapiens with 4 samples.

Results

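The HLA class II presentation genes considered here were HLA-DRA, HLA-DRB1, HLA-DPA1, HLA-DPB1, HLA-DMA, HLA-DMB, HLA-DOA, HLA-DOB, CD74 and CIITA, taken by symbol as 10 of the 25066 genes measured by RNA sequencing of NUDUL1 cells. NUDUL1 is a line of human diffuse large B cell lymphoma of the germinal center type, used here as cells that carry doxycycline-inducible Cas9 and were transduced with Tbxa2r, the thromboxane receptor, which couples to Gα13. Cells with a control sgRNA and cells with a GNA13 sgRNA, 1 guide each, were all given U46619, a stable thromboxane analog, at 10 nM for 24 h, and 2 libraries were sequenced per genotype. GNA13 encodes Gα13. The comparison therefore asked how expression differs with the GNA13 guide while the receptor is engaged, and it held no untreated cells. No source says that the 2 libraries of a genotype came from separate cultures, so p-values measure the spread between these libraries, which may be technical.

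Class II molecules present peptides from endocytosed proteins to CD4+ T cells. The DR and DP alpha and beta chains pair in the endoplasmic reticulum with the invariant chain, CD74, which blocks the groove and directs them to endolysosomes. There proteases degrade the invariant chain, HLA-DM releases its last fragment and selects stably bound peptides, and HLA-DO, which is made mainly in B cells and thymic epithelium, holds HLA-DM back. Transcription of this gene family depends on CIITA, a coactivator that binds no DNA itself and is recruited by the RFX, CREB and NF-Y complexes at the X, X2 and Y boxes of class II promoters. In germinal center B cells the pathway is the means by which cells obtain T cell help.

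Mapped reads numbered 29209544 and 31537955 under the control label and 30141459 and 29685942 under the GNA13-deficient label. Values were deposited as normalized log2 reads, so a difference of 1 is a doubling, and those of low genes stepped in whole reads, from which the reads behind each value were recovered. The transcript of the targeted gene, GNA13, was at 12.457 and 12.446 under the control label and at 13.101 and 13.109 in the others, a difference of 0.65 ± 0.05 (SE) with an adjusted p of 0.00214 in limma. It was thus higher where the label says deficient, so genotypes are given below by their label, and each direction rests on the labels. All 10 B cell markers listed were present, at about 75157 to 84577 reads summed over the list, which matches the labelled cell type. Summed over 8 T and NK cell markers, the reads were 121 and 180 under the control label and 15 and 5 under the GNA13-deficient label, with 5 to 7 of the 8 at 0, and both of the 2 tested fell. Over 8 monocyte, macrophage and dendritic cell markers they were 277 and 300 against 478 and 530, with 2 or 3 of the 8 at 0, and of the 6 tested 1 rose and 2 fell. CD1C, named after its values were seen, carried that rise, and the other 7 summed to 225 and 249 against 29 and 26 reads. Of the T and NK cell markers, CD3D, CD3E and CD2 were at 0 in all 4 libraries. CD4 carried most of that sum, with 115 and 175 reads under the control label against 12 and 5. CD8A had 5 and 5 against 0 and 0. These T and NK cell genes are named after their values were seen. Over all genes tested, 13.1% were called higher and 16.6% lower. The part of these markers in the differences below was not tested.

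The promoters of the members were read from RefSeq windows of 300 bases, from 250 before to 50 after each start, on GRCh38.p14. Of the 10 members, 8 had an entry, and HLA-DRA and CIITA had none. Stretches from 5 of them are shown because each holds a match to the X box core or to CTGATGATG upstream of a Y box, and because HLA-DMA beside HLA-DMB, and HLA-DOA beside HLA-DOB, are the pairs that the results below compare. Capitals mark the X box core, searched as GNNACNGAT on both strands, and the Y box, searched as ATTGG on both strands and written CCAAT where it lies on the other strand. Where the letters CTGATGATG, searched after the sequences had been seen, share their first 5 bases with the X box core, the capitals run on over both, and in HLA-DOB they mark CTGATGATG alone. All 5 lie on the minus strand.
HLA-DRB1 (chr6:32589885-32589931): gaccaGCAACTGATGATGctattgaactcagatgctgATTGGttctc
HLA-DMA (chr6:32953167-32953214): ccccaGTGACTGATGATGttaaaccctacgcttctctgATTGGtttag
HLA-DMB (chr6:32941041-32941120): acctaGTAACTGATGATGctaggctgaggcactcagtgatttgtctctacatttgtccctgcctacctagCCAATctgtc
HLA-DOA (chr6:33009649-33009696): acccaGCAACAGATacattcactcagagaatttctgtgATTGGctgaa
HLA-DOB (chr6:32817091-32817132): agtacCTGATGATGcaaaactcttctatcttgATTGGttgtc

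An X box core followed on the same strand by a Y box after 15 to 40 bases was found in HLA-DRB1, HLA-DMA and HLA-DOA, with 23, 24 and 24 bases from the end of the core to the Y box, against 0.175% of 34796 promoter windows of the same length. In HLA-DMB the Y box after the core was in the opposite orientation and 56 bases away. HLA-DOB held CTGATGATG and a Y box 18 bases apart but no match to the X box core. CTGATGATG was present in HLA-DRB1, HLA-DMA, HLA-DMB and HLA-DOB, and in 0.27% of all windows, whereas HLA-DOA lacked it. Taken singly the motifs are common, since 6.58% of windows held the X box core, 34.62% the Y box and 24.49% the X2 box, searched as TGACG on both strands. The windows of CD74 and HLA-DPB1 held a Y box without an X box core, and neither element was found in those of HLA-DPA1. A match describes letters only.

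With the GNA13 guide, 2 of the 10 members fell and none rose. HLA-DOA, the alpha chain of HLA-DO, and HLA-DMB, the beta chain of HLA-DM, were 1.54-fold and 1.47-fold lower. The peptide-presenting DR and DP chains, the invariant chain and CIITA did not pass the test. On the log2 scale the lower bounds of their intervals ran from -0.48 for HLA-DPB1 to -0.23 for HLA-DPA1. The upper bounds ran from 0.01 for HLA-DPB1 to 0.33 for CD74. The intervals of HLA-DRA, HLA-DPB1 and CD74 overlapped that of HLA-DMB, -0.77 to -0.34, so not passing does not show that these genes were unchanged. Over the 16945 genes tested, 16.6% were called lower and 13.1% higher, so 2 of 10 lower is close to the background. All 10 members passed the filter on low values and were above 0 in every library. Both libraries labelled GNA13-deficient lay below both labelled control for 6 of the 10 members, against 34.0% of genes tested, and above for none, against 31.3%. The median log2 difference over the members was -0.13, beside -0.024 over all genes tested. All 10 differences were negative as deposited, but after each library was centred on its median those of HLA-DRA, HLA-DRB1, HLA-DPA1, HLA-DMA, CD74 and CIITA were positive. In these bulk samples fewer cells that express a gene and less RNA per cell cannot be told apart.

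**Figure D1:**
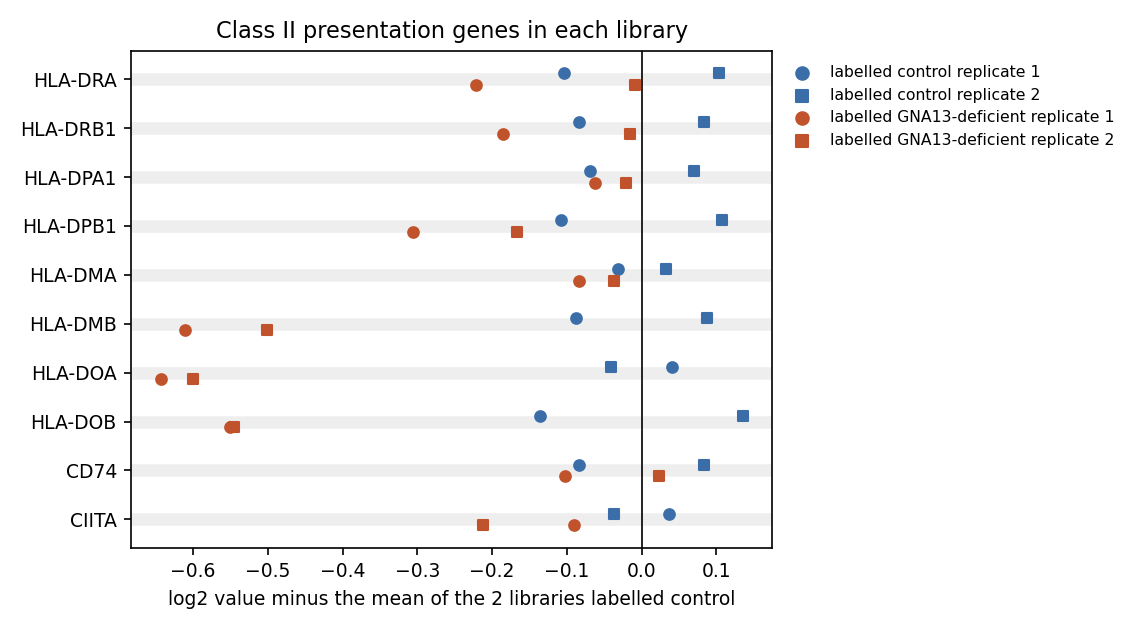
Log2 value of each of the 10 class II presentation genes in each of the 4 libraries, given relative to the mean of the 2 libraries labelled control (x axis, log2 units); each point is 1 library, circles replicate 1 and squares replicate 2. HLA-DMB, HLA-DOA and HLA-DOB stand apart between genotypes, whereas HLA-DRA, HLA-DRB1, HLA-DPA1 and CD74 overlap. HLA-DPB1, HLA-DMA and CIITA do not overlap either, but are separated by only 0.059, 0.005 and 0.053.

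HLA-DO is the negative modulator of HLA-DM. HLA-DOA (chr6:32971959-32977368 on GRCh37, minus strand) was at 11.847 and 11.766 on the log2 scale under the control label and at 11.163 and 11.206 under the GNA13-deficient label. The genotypes did not overlap, and the distance between them, 0.56, was larger than the spread within either. The log2 difference was -0.62 ± 0.06 (SE, 95% interval -0.77 to -0.48, adjusted p = 0.0029, limma with Benjamini-Hochberg adjustment), or 1.54-fold lower. HLA-DOA was called lower under each of the 10 other settings that kept all 4 libraries. With any 1 library left out, none of the 16945 genes was called, and the adjusted p was 0.0762 to 0.079 for HLA-DOA and 0.0811 to 0.125 for HLA-DMB.

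HLA-DOB, the beta chain of HLA-DO (chr6:32780540-32788243, minus strand), was by far the lowest of the members, at 6.991 and 7.262 under the control label and 6.576 and 6.581 under the GNA13-deficient label. These log2 values rest on 125, 156, 93 and 89 reads, with exact Poisson 95% intervals of 104 to 148.9, 132.5 to 182.5, 75.1 to 113.9 and 71.5 to 109.5 that cover counting error only. The intervals of the single libraries overlap between genotypes, apart from that of the second control library. By annotation, HLA-DOB shares 599 exon bases with a further gene model on its strand, which is not among the genes measured. The log2 difference of HLA-DOB, -0.55 ± 0.18 (SE, 95% interval -1.0 to -0.09), was about the size of that of HLA-DMB but did not pass the test (adjusted p = 0.0768, limma). With a robust variance prior or with voom weights on the recovered reads it did, with adjusted p-values of 0.0494 and 0.0373. With quantile normalization the difference shrank to -0.142 (adjusted p = 0.624, limma), and after median centring to -0.34 (0.214).

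HLA-DM is the peptide editor itself. HLA-DMA, the alpha chain (chr6:32916390-32936871, minus strand), was at 11.859 and 11.923 against 11.807 and 11.854. The genotypes were separated by only 0.005, and the log2 difference of -0.06 ± 0.05 (SE, 95% interval -0.20 to 0.08, adjusted p = 0.462, limma) was within the spread between libraries. HLA-DMB, the beta chain (chr6:32902406-32908805, minus strand), was at 11.436 and 11.611 under the control label and at 10.913 and 11.023 under the GNA13-deficient label, with no overlap. It fell by 0.56 ± 0.08 on the log2 scale (SE, 95% interval -0.77 to -0.34) with an adjusted p of 0.00953 in limma. The call on HLA-DMB was lost without a filter on low values (adjusted p = 0.091), after median centring (0.0506) and without a variance trend (0.0618). By annotation, HLA-DMB and HLA-DMA share 438 and 160 exon bases with a further gene model on their strand that the table does not list, and the exons of HLA-DMA share 55 bases with BRD2 on the opposite strand.

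Ratios within a library do not depend on how libraries were scaled. The log2 ratio of HLA-DMB to HLA-DMA, added after the values had been seen, was -0.42 and -0.31 under the control label and -0.89 and -0.83 under the GNA13-deficient label, a difference of -0.50. HLA-DOA to HLA-DMA was -0.01 and -0.16 against -0.64 and -0.65, a difference of -0.56. Both ratios were lower in each library labelled GNA13-deficient than in each labelled control, by more than the spread within a genotype. In contrast, HLA-DOB to HLA-DMB was -4.44 and -4.35 against -4.34 and -4.44, which overlapped, with a difference of 0.01. The mean of the DO chains relative to the mean of the DM chains was -2.23 and -2.25 against -2.49 and -2.54, a difference of -0.28. With 2 libraries against 2, the exact two-sided permutation test cannot give a p below 0.333, and each of these ratios except HLA-DOB to HLA-DMB (0.667) reached that value.

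**Figure D2:**
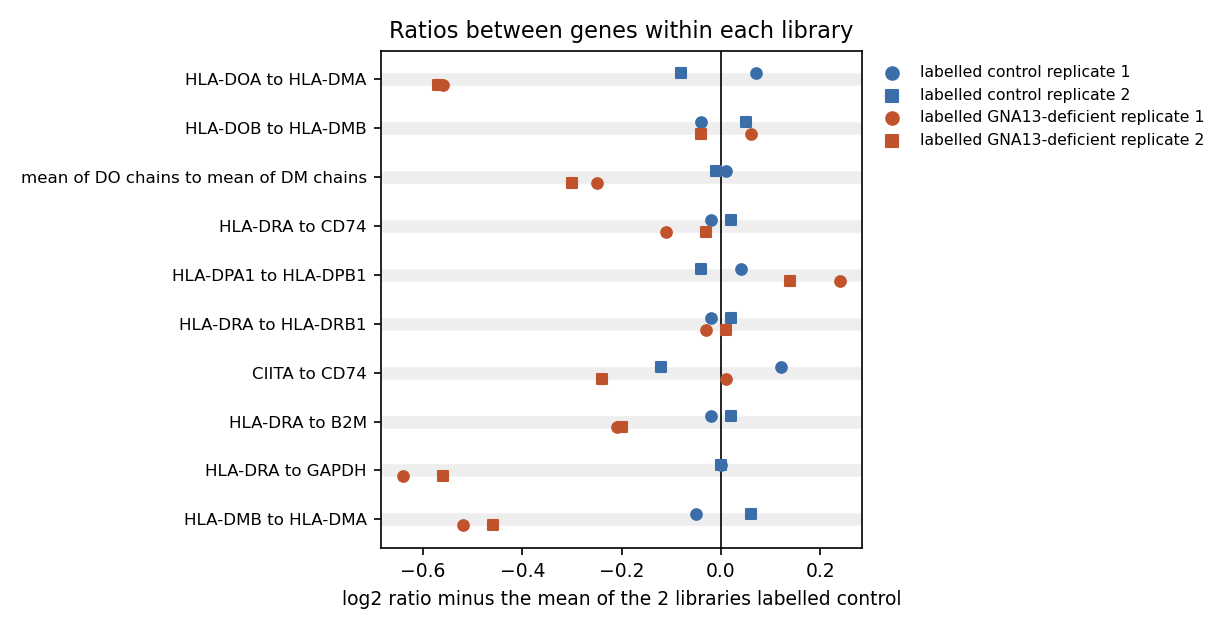
Log2 ratio between pairs of genes in each of the 4 libraries, relative to the mean of the 2 libraries labelled control (x axis, log2 units); each point is 1 library. HLA-DOA to HLA-DMA, HLA-DMB to HLA-DMA and HLA-DRA to GAPDH were lower in both libraries labelled GNA13-deficient, while HLA-DOB to HLA-DMB and HLA-DRA to HLA-DRB1 overlapped.

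Among the chains that present peptide, HLA-DRA, the barely polymorphic alpha chain of HLA-DR (chr6:32407655-32412823, plus strand), was at 15.168 and 15.376 under the control label and 15.051 and 15.263 in the others. HLA-DRB1, its polymorphic partner (chr6:32545679-32557625, minus strand), was at 13.054 and 13.222 against 12.952 and 13.123. In both genes replicate 2 was the higher library of each genotype, and the genotypes overlapped. The log2 differences were -0.12 ± 0.12 (SE, 95% interval -0.43 to 0.20, adjusted p = 0.526) for HLA-DRA and -0.10 ± 0.09 (SE, -0.34 to 0.14, 0.47) for HLA-DRB1 in limma. The log2 ratio of HLA-DRA to HLA-DRB1 was 2.11 and 2.15 against 2.10 and 2.14, and overlapped.

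HLA-DPA1, the DP alpha chain (chr6:33032346-33048552, minus strand), was at 13.542 and 13.681 against 13.549 and 13.590, with both libraries labelled GNA13-deficient inside the range of the control. HLA-DPB1, the DP beta chain (chr6:33043767-33057473, plus strand), was at 12.625 and 12.840 against 12.427 and 12.566, without overlap. Their log2 differences were -0.04 ± 0.07 (SE, 95% interval -0.23 to 0.15, adjusted p = 0.709) and -0.24 ± 0.10 (SE, -0.48 to 0.01, 0.132), neither past the threshold in limma. HLA-DPB1 passed it with a filter at the median (adjusted p = 0.0444), quantile normalization (0.0282) and voom weights (0.0302), and HLA-DPA1 with quantile normalization (log2 difference -0.2, 0.0423). After median centring neither did, at log2 differences of -0.028 for HLA-DPB1 (adjusted p = 0.866, limma) and 0.166 for HLA-DPA1 (0.218). The log2 ratio of HLA-DPA1 to HLA-DPB1 was 0.92 and 0.84 against 1.12 and 1.02, higher in both libraries labelled GNA13-deficient by 0.19 (exact permutation p = 0.333, the smallest possible). These genes are read from opposite strands and share 96 exon bases, and while the library kit marks strand, the strand setting of the counting is not given in the sources used here.

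CD74, the invariant chain (chr5:149781200-149792532, minus strand), had the highest values of the members, at 16.854 and 17.022 under the control label and 16.836 and 16.961 under the GNA13-deficient label. These rest on 116414, 135266, 114007 and 118594 reads. The genotypes overlapped, with a log2 difference of -0.04 ± 0.14 (SE, 95% interval -0.41 to 0.33, adjusted p = 0.874, limma). HLA-DRA to CD74 was -1.69 and -1.65 against -1.78 and -1.70 on the log2 scale, a difference of -0.08 that was smaller than the spread of 0.09 between the libraries labelled GNA13-deficient. This ratio was lower in both of them than in both control libraries (exact permutation p = 0.333, the smallest possible).

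CIITA, the master regulator of the family (chr16:10960079-11036878, plus strand), was at 12.053 and 11.979 under the control label and 11.926 and 11.804 under the GNA13-deficient label. The latter lay below the former by a small margin, and the log2 difference of -0.15 ± 0.07 (SE, 95% interval -0.32 to 0.02, adjusted p = 0.159, limma) did not pass the threshold. Relative to CD74, CIITA was at -4.80 and -5.04 against -4.91 and -5.16 on the log2 scale, and the genotypes overlapped. The exons of CIITA share 2424 bases with DEXI on the opposite strand. Among 8472 genes at or above the median level, those whose values over the 4 libraries ran nearest to CIITA, each centred on its own mean, were LPIN2, C13orf23, PITPNB, TRAPPC6B and CDKAL1, at Euclidean distances of 0.01 to 0.027 log2 units. For CD74 they were COTL1, MFNG, MGC29506, GRAP and HDAC8, at 0.013 to 0.026. With 4 libraries this likeness is a description only.

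Against genes outside the pathway, the log2 ratio of HLA-DRA to B2M, the light chain of class I, was -0.43 and -0.39 under the control label and -0.62 and -0.61 under the GNA13-deficient label, a difference of -0.20. HLA-DRA to GAPDH, a glycolytic gene often used as a reference, was -0.92 in both under the control label and -1.56 and -1.48 in the others, a difference of -0.60. HLA-DRA itself differed by -0.12, so most of the -0.60 lies in GAPDH, which was higher under the GNA13-deficient label. Both ratios were separated between genotypes (exact permutation p = 0.333, the smallest possible), so the size of a class II difference depends on the gene it is set against.

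Levels can be compared between genes only per length, and reads were therefore divided by the exon bases of each gene in the GRCh37 annotation and scaled to TPM, which sums to the same total in each library, over 17107 genes. HLA-DRA was highest, at 4814 and 5213 TPM under the control label and 4279 and 4668 under the GNA13-deficient label. CD74 followed at 4257 and 4484 against 4053 and 4163. HLA-DRB1, HLA-DPA1, HLA-DMA, HLA-DPB1, HLA-DOA, HLA-DMB, CIITA and HLA-DOB then followed in this order in both genotypes, and no neighbours in it overlapped. The lowest, HLA-DOB, was at 10.5 and 11.9 against 7.6 and 7.18 TPM, far below its partner HLA-DOA at 150 and 133 against 90.2 and 87.5. HLA-DMB was at 97.7 and 103 against 65.5 and 66.6, below HLA-DMA at 240 and 235 against 223 and 217. The order depends on the length used: with the canonical transcript, an alternative added after the values had been seen, CD74 came first, HLA-DRB1 and HLA-DPA1 overlapped, and HLA-DMB stood above HLA-DPB1. HLA-DOB was last either way.

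**Figure D3:**
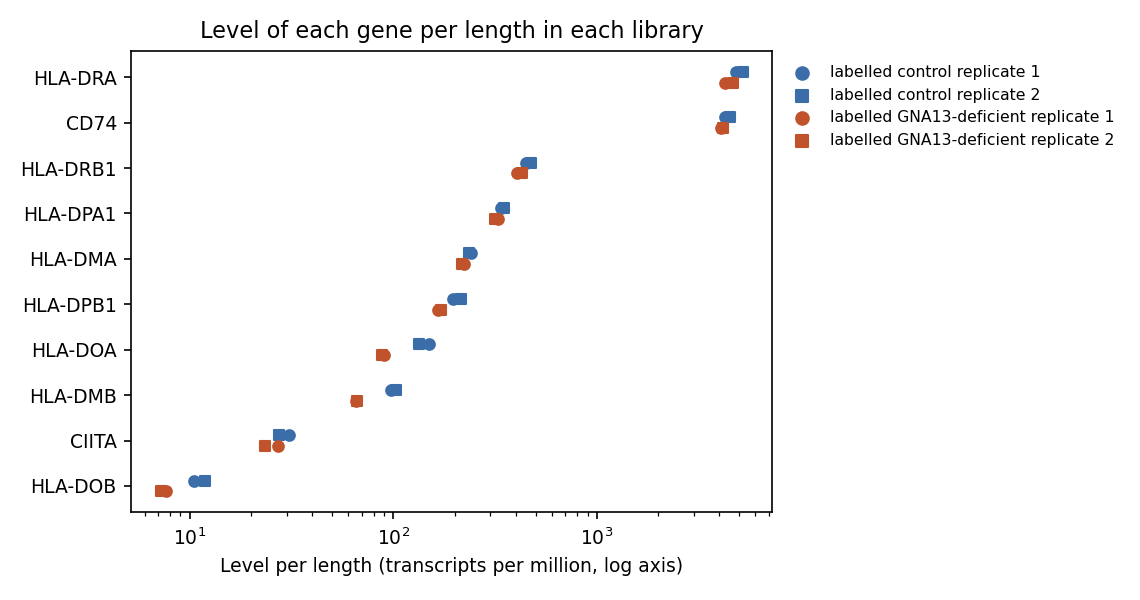
Level of each member in TPM by exon length (x axis, log scale) in each of the 4 libraries; each point is 1 library. The levels range from 7.18 for HLA-DOB to 5213 for HLA-DRA, and the order of the genes was the same in both genotypes.

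The other class II genes did not move in one direction. Of 9 listed, HLA-DRB3 and HLA-DRB4 were not in the table, and of the 7 tested 1 rose and 3 fell, with a median log2 difference of 0.22. Over all genes tested, 13.1% were called higher and 16.6% lower. HLA-DQA1, the DQ alpha chain, was at 9.847 and 9.892 under the control label and at 10.431 and 10.477 under the GNA13-deficient label, a log2 rise of 0.58 ± 0.06 (SE, adjusted p = 0.00368, limma). HLA-DQB1, its beta partner, was at 10.420 and 10.579 against 10.647 and 10.804, higher by 0.23 ± 0.09 without passing the test (SE, adjusted p = 0.122), though it did after median centring (0.0332). HLA-DRB5, a second DR beta gene, fell from 10.414 and 10.590 to 9.944 and 10.014, a log2 difference of -0.52 ± 0.08 (SE, adjusted p = 0.0111). Its call was lost without a filter (adjusted p = 0.0877), without a variance trend (0.0627) and after median centring (log2 difference -0.315, 0.0609). The others that fell were the pseudogene HLA-DRB6, at -0.85, and HLA-DQA2, at -1.81, both named after their values were seen. HLA-DRB1, HLA-DRB5 and HLA-DRB6, and likewise HLA-DQA1 and HLA-DQA2, are near copies of each other in a highly polymorphic region, and counting against the reference alleles can split their reads, so each of these values is uncertain.

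**Figure D4:**
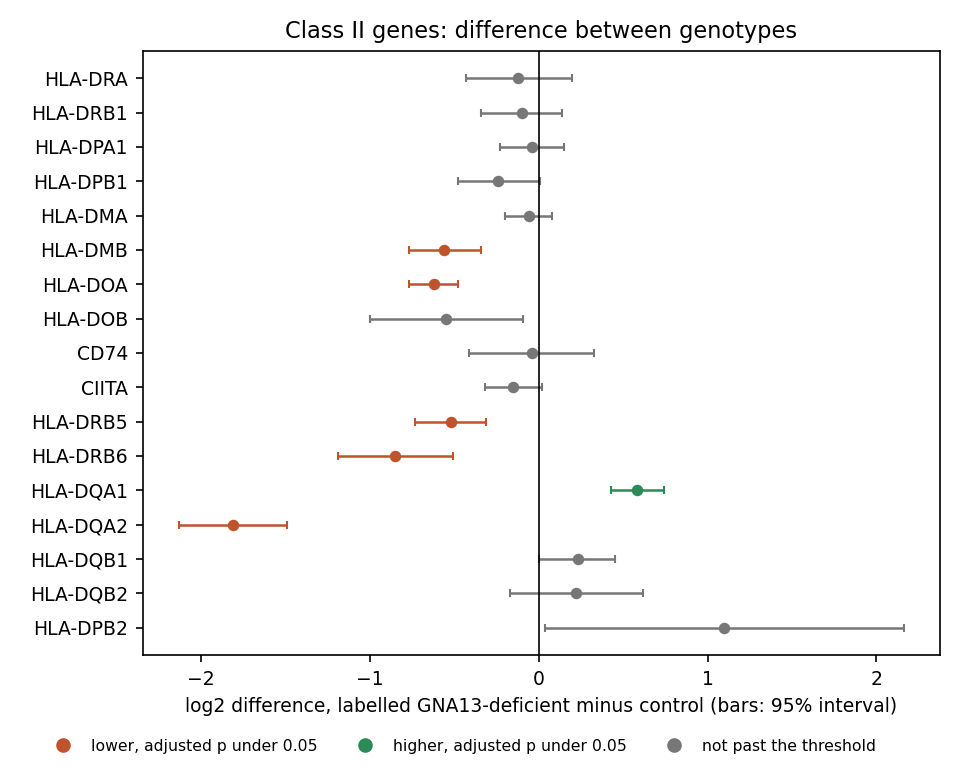
Log2 difference between the 2 libraries labelled GNA13-deficient and the 2 labelled control (x axis) for the 10 members and the 7 other class II genes tested; points are limma estimates and bars 95% intervals. HLA-DMB, HLA-DOA, HLA-DRB5, HLA-DRB6 and HLA-DQA2 passed the threshold as lower and HLA-DQA1 as higher, and the interval of HLA-DPB2, at 2 to 5 reads a library, was the widest.

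Of the factors that act at class II promoters, 16 were listed and all tested, and 1 fell and none rose, with a median log2 difference of -0.05. Among all genes tested, 16.6% were called lower and 13.1% higher. The RFX subunits did not pass the test as deposited: RFX5, the DNA-binding subunit, differed by 0.05 ± 0.07 (SE, adjusted p = 0.667), RFXAP by 0.13 ± 0.12 (0.47) and RFXANK by -0.25 ± 0.11 (0.165) on the log2 scale in limma. After median centring RFX5 was called higher, at 0.255 (adjusted p = 0.035). The factor that fell was NCOA3, a steroid receptor coactivator, from 11.921 and 11.837 to 11.466 and 11.237, or -0.53 ± 0.09 (SE, adjusted p = 0.0149), a call lost without a filter (0.121) and without a variance trend (0.0776).

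Of 22 genes that bear on CIITA, 2 rose and 7 fell, with a median log2 difference of -0.16. The background over all genes tested was 13.1% called higher and 16.6% lower. BCL6, the germinal center repressor, was at 10.750 and 10.895 under the control label and at 8.232 and 8.441 under the GNA13-deficient label, the largest change in the list at -2.49 ± 0.10 (SE, adjusted p = 0.00085, limma). IRF8 and SPI1, transcription factors of B and myeloid cells, fell by 0.58 ± 0.10 and 0.56 ± 0.10 on the log2 scale (SE, adjusted p = 0.0153 and 0.0147), and EZH2, the histone H3K27 methyltransferase, rose by 0.74 ± 0.08 (SE, adjusted p = 0.00387). The others past the threshold were USF1, higher, and IRF4, FOXP1, IFNGR2 and PRDM1, lower, at log2 differences of 0.31, -0.32, -0.37, -0.26 and -1.85, and these 5 are named after their values were seen. Without a filter the calls on IRF8, SPI1, EZH2, USF1, IRF4, FOXP1 and IFNGR2 were lost (adjusted p from 0.055 for EZH2 to 0.172 for USF1), and without a variance trend the same genes apart from EZH2 lost theirs (0.0523 for IRF8 to 0.141 for USF1). After median centring IRF8, SPI1, IRF4, FOXP1 and IFNGR2 were no longer called, at log2 differences of -0.375, -0.357, -0.115, -0.159 and -0.056, and with voom weights USF1 was not (0.0849). BCL6 and PRDM1 were called under each alternative that kept the 4 libraries, apart from the filter at the median, which left PRDM1 untested.

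The endolysosomal genes that prepare peptides and recycle class II held larger changes than any class II member. Of 27 listed, 26 were tested, 3 rose and 8 fell, with a median log2 difference of -0.16, and CTSL was at 0 in all 4 libraries. The shares over all genes tested were 13.1% higher and 16.6% lower. IFI30, the thiol reductase of endosomes that opens disulfide bonds of antigens, was at 9.545 and 9.794 under the control label and at 6.991 and 7.285 under the GNA13-deficient label, which is 734 and 902 reads against 124 and 145. Its log2 difference was -2.53 ± 0.15 (SE, adjusted p = 0.00147, limma). LGMN, the asparaginyl endopeptidase, was at 9.515 and 9.686 against 8.430 and 8.880, lower by 1.93-fold (log2 difference -0.95 ± 0.17 SE, adjusted p = 0.0161). CTSS, the protease that removes most of the invariant chain in B cells, fell by 0.44 ± 0.06 on the log2 scale (SE, adjusted p = 0.00777), whereas the lysosomal proteases CTSB and CTSH rose by 0.50 ± 0.08 and 0.36 ± 0.10 (SE, adjusted p = 0.0136 and 0.0462). CTSS, CTSB and CTSH are named after their values were seen. LGMN, CTSS, CTSB and CTSH lost their calls without a filter (adjusted p = 0.138, 0.0586, 0.105 and 0.135) and without a variance trend (0.071, 0.06, 0.0723 and 0.109), and CTSS also after median centring (log2 difference -0.234, 0.0703).

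The tetraspanins, membrane organizers found with class II on vesicles and at the surface, went both ways. CD9 was at 11.798 and 11.910 under the control label and at 7.991 and 8.166 under the GNA13-deficient label, a log2 difference of -3.78 ± 0.09 (SE, adjusted p = 0.000594, limma), or 13.7-fold lower. CD82 was at 8.195 and 8.267 against 10.500 and 10.576, a rise of 2.31 ± 0.07 (SE, adjusted p = 0.000661). CD37 fell by 0.87 on the log2 scale. MARCH8, a ubiquitin ligase that removes class II from the surface, fell by 0.43, and ASAH1 and TSG101, of lysosomal lipid breakdown and vesicle sorting, fell by 0.56 and 0.46. These 4 genes are likewise named after their values were seen. MARCH8 was not called with quantile normalization, after median centring or without a variance trend (adjusted p = 0.0539, 0.113 and 0.0505), nor was TSG101 without a trend (0.0518).

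**Figure D5:**
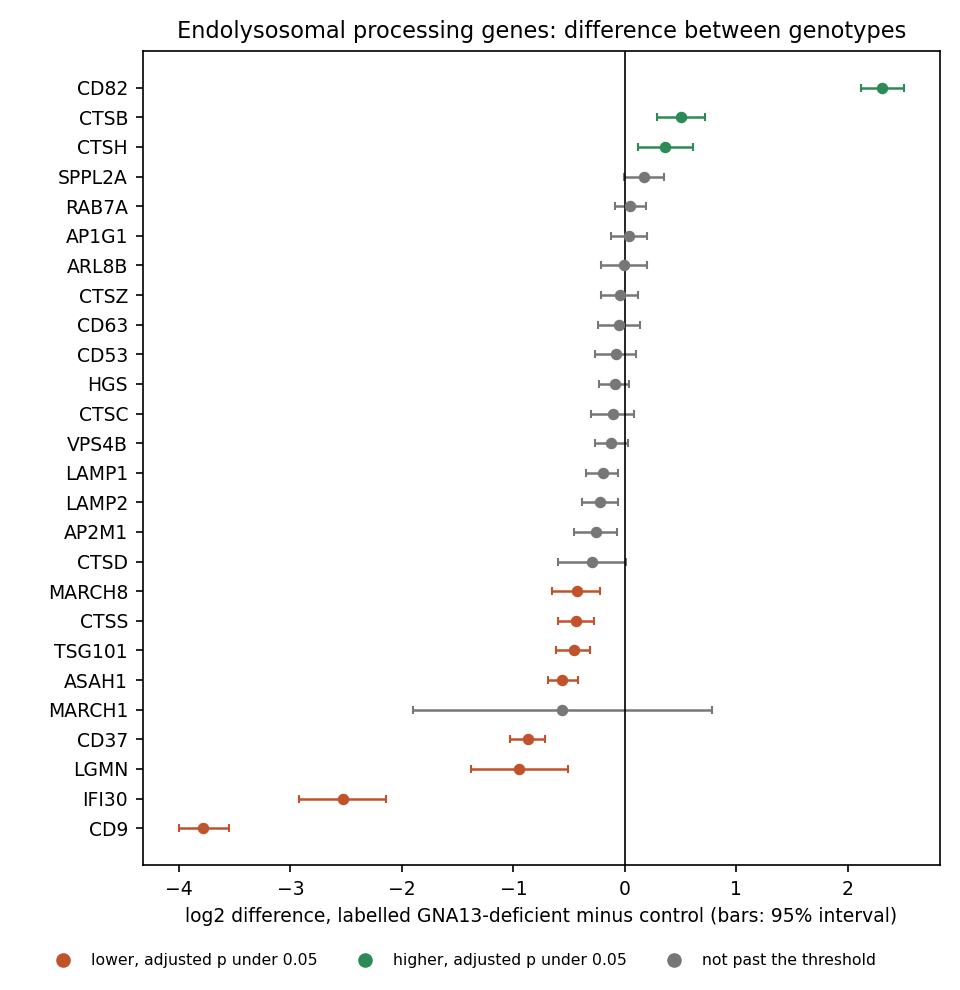
Log2 difference between the 2 libraries labelled GNA13-deficient and the 2 labelled control (x axis) for the 26 endolysosomal processing genes tested, in order of size; points are limma estimates and bars 95% intervals. CD9 and IFI30 lie farthest to the lower side and CD82 farthest to the higher side, and 15 genes did not pass the threshold.

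In the class I pathway, which loads cytosolic peptides, 1 of 22 genes rose and 6 fell, with a median log2 difference of -0.14, close to that of the class II members. Over all genes tested, 13.1% were called higher and 16.6% lower. TAP2, a subunit of the peptide transporter, was at 11.712 and 11.721 under the control label and at 11.101 and 11.109 under the GNA13-deficient label, a log2 difference of -0.61 ± 0.05 (SE, adjusted p = 0.00222, limma). TAPBP, the loading chaperone tapasin, and HLA-E each fell by 0.49 (SE 0.06 and 0.08, adjusted p = 0.00701 and 0.0144), and PSME2, a proteasome activator subunit, rose by 0.51 ± 0.09 (SE, adjusted p = 0.016). TAPBP, HLA-E and PSME2 lost their calls without a filter (adjusted p = 0.0597, 0.113 and 0.122) and without a variance trend (0.0548, 0.0764 and 0.0783), and HLA-E also after median centring (log2 difference -0.284, 0.0912). NLRC5, the class I counterpart of CIITA, and B2M did not pass the test, at -0.06 ± 0.07 and 0.09 ± 0.12 (SE, adjusted p = 0.561 and 0.625).

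Of the 10 B cell markers, 1 rose and 3 fell, with a median log2 difference of -0.03, beside 13.1% called higher and 16.6% lower over all genes tested. MS4A1, which encodes CD20, fell by 0.57 ± 0.06 on the log2 scale (SE, adjusted p = 0.00477, limma), and the signaling adaptor BLNK fell by 0.26 ± 0.06 (SE, adjusted p = 0.028). The call on BLNK was lost without a filter (adjusted p = 0.0927), without a variance trend (0.131) and after median centring, where the log2 difference was -0.052 (0.535). The log2 differences of HLA-DMB and HLA-DOA, -0.56 and -0.62, were of about the size of that of MS4A1. This holds for that 1 marker and not for the list, of which 6 genes were not called.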

How the data were processed

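NUDUL1 libraries, from a stranded kit for poly(A) RNA, were sequenced as paired reads, whose length differs between the study's methods and the labels. The authors used STAR to align the reads to hg19, counted them with HTSeq per the submitters' processing notes, normalized them and deposited log2 values per gene. The annotation, the strand setting and the method of normalization are not given in the sources used here. The same deposited table holds a row of mapped read counts, used for depth only. Values up to 400 reads came out whole in 100.0% of cases.

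The deposited log2 values were compared between genotypes, with 2 libraries each, by limma 3.58.1 (lmFit, then eBayes with trend, R 4.3.3) on the 16945 of 25066 genes above 0 in at least 2 libraries, without a pseudocount. Adjustment over these genes followed Benjamini and Hochberg, with a threshold of 0.05. Ratios were compared by exact permutation over libraries with Python 3.11.15. Positions and lengths are from GENCODE v44 on GRCh37. Older symbols of CTSL, MARCH1 and MARCH8 were matched by gene identifier.

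The members, the gene lists and the tests were chosen with earlier results of these data known. Named were all members, GNA13, in each list the members with an adjusted p under 0.05 (at most 4 by size of difference, at or above the median level), HLA-DQA1, HLA-DQB1, RFX5, RFXAP, RFXANK, NLRC5 and B2M whatever their result, and the 5 genes nearest to CIITA and to CD74. A gene that this rule includes is not reported here. Alternatives were other filters, pseudocounts of 1 and 10, quantile normalization, median centring, the replicate number as a block, no variance trend, a robust prior, voom on recovered reads, and leaving out each library.

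The pipeline was tested on simulated libraries of this comparison with 16489 genes, where 29.9% of changes of 0.5 and 95.1% of changes of 1 on the log2 scale were recovered and no unchanged gene was called. Both shares depend on the noise chosen for the simulation. The changed genes, 97 at 0.5 and 103 at 1, were drawn only from those at or above the median read count. The shares thus say nothing of genes with fewer reads, such as HLA-DOB. Far more genes, 5037, were called in the data, so the adjustment for the number of tests also differs.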

Additional observations from a re-analysis of the deposited data

How the results depend on the processing

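HLA-DOA was called lower under all 10 alternatives that kept the 4 libraries, with log2 differences of -0.67 to -0.41, and HLA-DMB under 7 of them, with -0.61 to -0.35. The number of members called lower was 2 as reported, and 1 without a filter, after median centring and without a variance trend. It was 3 with a robust prior and with a filter at the median, which left HLA-DOB untested. With quantile normalization, voom and the replicate number as a block it was 4. In these 3 fits 2547, 3108 and 3563 of all 16945 genes tested were called lower, against 2819 as reported. No alternative called a member higher. Genes called higher were 815 without a filter, 4311 after median centring and 986 without a variance trend. Genes called lower were 1184 without a filter, 1854 with a filter at the median and 1732 without a trend. The genes tested numbered 25066 without a filter, 8473 with a filter at the median and 16945 otherwise, so these counts are not shares of one total. After median centring the median over all genes tested was 0.184 instead of -0.024 and the share of calls that were higher 69.1% instead of 44%, the median of the members was 0.075, and the differences were 0.093 for HLA-DRA, 0.108 for HLA-DRB1, 0.166 for HLA-DPA1, 0.148 for HLA-DMA, 0.169 for CD74, 0.057 for CIITA and 0.148 for NLRC5, all below the median over all genes. RFX5 turned to -0.035 with quantile normalization and -0.002 with voom. The cause of these changes was not tested. With any 1 library left out, the counts of genes and of members called were 0 to 0 in limma, with 5257 to 5600 genes and 2 to 4 members, all lower, at an unadjusted p under 0.05 and a smallest adjusted p of 0.0708 to 0.079, so these fits say nothing of single calls. The lone library was assumed to vary like the others. Without 1 library the differences ran from -0.112 to 0.027 for HLA-DPA1, -0.124 to 0.044 for CD74, -0.017 to 0.11 for RFX5, -0.026 to 0.277 for RFXAP, -0.138 to 0.017 for NLRC5 and -0.011 to 0.19 for B2M, and the ratios from -0.04 to 0.06 for HLA-DOB to HLA-DMB, -0.03 to 0.01 for HLA-DRA to HLA-DRB1 and -0.23 to 0.01 for CIITA to CD74, with the sign changing in each. Those of HLA-DMB and HLA-DOA ran from -0.643 to -0.468 and -0.663 to -0.582.

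Same-numbered libraries share only a number. Over 8473 genes the deviations of same-numbered libraries from their genotype means correlated at 0.453, a hint from the data and not from the design. With the replicate block, HLA-DPB1 and CIITA were called lower (adjusted p = 0.0104 and 0.0378) beside HLA-DMB and HLA-DOA, RFXANK was called lower (0.0221) and HLA-DQB1 higher (0.0184), and 6616 genes were called in place of 5037. HLA-DOB had the fewest reads of the members, 89 to 156 a library.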
